A study of Mus musculus with 9 samples.

Results

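The 8 genes described here encode components of the complement system: C1ra, C1s1 and C4b of the classical pathway, C3 and Cfb of the alternative pathway, and the regulators Cfhr2, Cfi and Cd55. They are 8 of the 32137 genes in the count files and were found by name. The set was chosen because the level of Cfhr2 fell under Rspo1 in these same libraries, so the comparisons of Rspo1-treated with untreated cells are given for the 8 genes as values, with calls counted only as a description. All 8 passed the filter on low counts, which kept 17011 genes.

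RNA was sequenced from sorted cells of bile duct organoids, which are epithelial cysts grown from mouse bile duct cells. All organoids came from 1 male mouse of mixed genetic background with the genotype Axin2CreERT2+/-; R26-LSL-tdTom+/-, in which a tamoxifen-inducible Cre recombinase made under control of Axin2 switches on the red reporter tdTomato. Expansion took 2 to 4 days and differentiation 11 days in each group, and every group received 3 uM dexamethasone and 500 nM 4-hydroxytamoxifen over the last 24 h. The untreated group was tdTom-negative cells without Rspo1. The other 2 groups came from organoids given Rspo1, a secreted amplifier of Wnt signalling, at 100 ng/ml over the same 24 h, and were sorted as tdTom-negative (Rspo1-negative) or tdTom-positive (Rspo1-positive). Untreated tdTom-positive cells were not analysed here. Each group has 3 libraries, from organoid passages 5, 6 and 10. By the labels' design the reporter is switched on by Axin2-driven Cre, so the gate sorts cells by the reporter and not by a lineage marker. Because there is 1 animal, every p-value measures the spread between cultures of that animal.

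Total counts per library were 23423979 to 37351448. Axin2, a Wnt target gene and the driver of the reporter, was at 1.32 to 5.96 CPM in untreated, 44.4 to 124 CPM in Rspo1-negative and 75.7 to 154.5 CPM in Rspo1-positive cells, where CPM is the count scaled to a common library size (TMM). Its level was not called between the tdTom gates of Rspo1-treated organoids, with a log2 difference of 0.26 (SE 0.50, edgeR adjusted p = 0.733), and at passage 6 it was 88.7 CPM in the positive against 97.4 CPM in the negative gate. All 7 bile duct markers were tested. Their summed level was 6669 to 8416 CPM in untreated, 6625 to 8702 CPM in Rspo1-negative and 5690 to 5803 CPM in Rspo1-positive cells. Stromal markers summed to at most 1.01 CPM and endothelial markers to at most 0.812 CPM. Of 9 listed macrophage and leukocyte markers 6 had a row, with a summed level of 442 to 687 CPM in untreated, 487 to 602 CPM in Rspo1-negative and 374 to 422 CPM in Rspo1-positive cells. Cd14 made up most of it, at 328 to 637 CPM, followed by Csf1r at 37.2 to 56.1 and Cd68 at 5.34 to 23.02 CPM, while Fcer1g, Ptprc and Lyz2 had at most 13, 5 and 4 counts. The 8 hepatocyte markers summed to 356 to 722 CPM in untreated, 409 to 724 CPM in Rspo1-negative and 327 to 489 CPM in Rspo1-positive cells. Of these Ttr was at 149 to 534 CPM, Hnf4a at 123 to 281 CPM, Alb at 3.91 to 15.3 CPM and Apoa1 at 0.196 to 1.57 CPM, while Cyp2e1, Tat, Serpina1b and Cyp3a11 had at most 7, 4, 2 and 1 counts. Proliferation markers differed between the groups, with a summed level of 35.9 to 101 CPM in untreated, 98.0 to 168 CPM in Rspo1-negative and 399 to 711 CPM in Rspo1-positive cells. The rRNA gene CT010467.1, picked after its values were seen, held 2.27%, 7.2% and 8.89% of the counts in the passage 6 libraries of the untreated, Rspo1-negative and Rspo1-positive groups. At passages 5 and 10 its share was 0.21% to 4.35%. The part of these differences in the results below was not tested. In bulk RNA, fewer cells of a type and less RNA per cell cannot be told apart.

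Complement is a cascade of blood proteins that tags surfaces for removal and can perforate membranes. In the classical pathway the proteases C1r and C1s act in turn and cleave C4 and C2, and the alternative pathway builds its own enzyme from C3 and factor B. Soluble regulators such as factor I, and membrane regulators such as CD55, set how long these enzymes last on a surface. Most circulating complement is made by hepatocytes, and epithelial cells also make C3 and factor B, with inflammatory cytokines as known inducers.

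The promoters of Cfhr2 and C3 are shown because these 2 genes carried the group pattern and the passage pattern described below. RefSeq promoter windows of 250 bases before to 50 after the transcription start were matched for 5 of the 8 genes (C1ra, C1s1, C3, Cfhr2 and Cd55). Both windows below are on the minus strand of GRCm38.p6 and are printed 5′ to 3′ in the direction of the gene, at chr1:139858650-139858949 for Cfhr2 and chr17:57228087-57228386 for C3. Capitals mark every match, on either strand, to 1 of 5 motifs: NF-kB (GGG and CC with any 5 bases between), STAT (TTCNNNGAA), interferon response (GAAA and GAAA with any 2 bases between), C/EBP (TTNCNNAA) and TCF/LEF (CTTTGNT).
Cfhr2: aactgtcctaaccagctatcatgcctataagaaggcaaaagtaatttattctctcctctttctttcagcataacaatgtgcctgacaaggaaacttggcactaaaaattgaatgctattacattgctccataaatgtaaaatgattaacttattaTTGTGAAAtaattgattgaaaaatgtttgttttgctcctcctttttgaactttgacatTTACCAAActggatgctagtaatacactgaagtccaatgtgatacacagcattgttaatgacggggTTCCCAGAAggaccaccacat
C3: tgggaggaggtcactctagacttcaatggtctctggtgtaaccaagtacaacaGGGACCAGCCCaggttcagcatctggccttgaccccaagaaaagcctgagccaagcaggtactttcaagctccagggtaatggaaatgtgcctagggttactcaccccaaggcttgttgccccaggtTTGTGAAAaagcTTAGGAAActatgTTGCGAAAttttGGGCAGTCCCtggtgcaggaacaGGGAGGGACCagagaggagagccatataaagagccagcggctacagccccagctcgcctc

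Among all 32851 RefSeq windows the NF-kB letters were in 50.8%, the STAT letters in 8.3%, the interferon response letters in 3.4%, the C/EBP letters in 40.7% and the TCF/LEF letters in 18.6%. The C3 window had NF-kB matches starting at positions -197, -196, -33 and -10, counting the start base as 0, and C/EBP matches at -70, -58 and -45. The matches at -197 and -196 overlap, and the match at -33, GGGCAGTCCC, reads as a match on both strands. The Cfhr2 window had C/EBP matches at -95 and -37 and 1 STAT match, TTCCCAGAA, at position 29 after the start. The C1ra window also had a STAT match, at position 32. A TCF/LEF match was in the C1s1 window and in none of the other 4 genes' windows, and none of the 5 genes had an interferon response match. A match is a description of letters in a window of this length.

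Cfhr2 encodes a soluble protein of a family of complement regulators whose members bind C3 fragments. It lies on chromosome 1 at 139804167 to 139858702, minus strand, of GRCm38, the build of all gene positions given here. Its level was 16.8, 20.6 and 33.2 CPM in the untreated libraries of passages 5, 6 and 10. In Rspo1-negative cells it was 6.76, 3.37 and 7.54 CPM and in Rspo1-positive cells 3.13, 2.19 and 7.61 CPM. All 3 untreated libraries lay above all 6 Rspo1 libraries. On the log2 scale the fitted difference from untreated was -2.0 (SE 0.46) in Rspo1-negative and -2.45 (SE 0.47) in Rspo1-positive cells. Within passages 5, 6 and 10 the Rspo1-negative difference was -1.31, -2.59 and -2.13, and the Rspo1-positive difference was -2.40, -3.20 and -2.12. Both comparisons share the untreated libraries, and these are the values the set was chosen on. With an offset for GC content and length the difference from untreated was -1.39 in Rspo1-negative cells. The transcript of Cfhr2 has a GC content of 36.0%.

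The 2 Rspo1 groups overlapped for Cfhr2. The Rspo1-positive minus Rspo1-negative difference was -0.45 (SE 0.46, edgeR adjusted p = 0.509), and the Rspo1-positive library was lower at passages 5 and 6 but not at passage 10. With passage as a block and the GC and length offset together, the difference was -1.10 (edgeR adjusted p = 0.00291). It is the 1 setting of 15 that called Cfhr2 here.

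**Figure D1:**
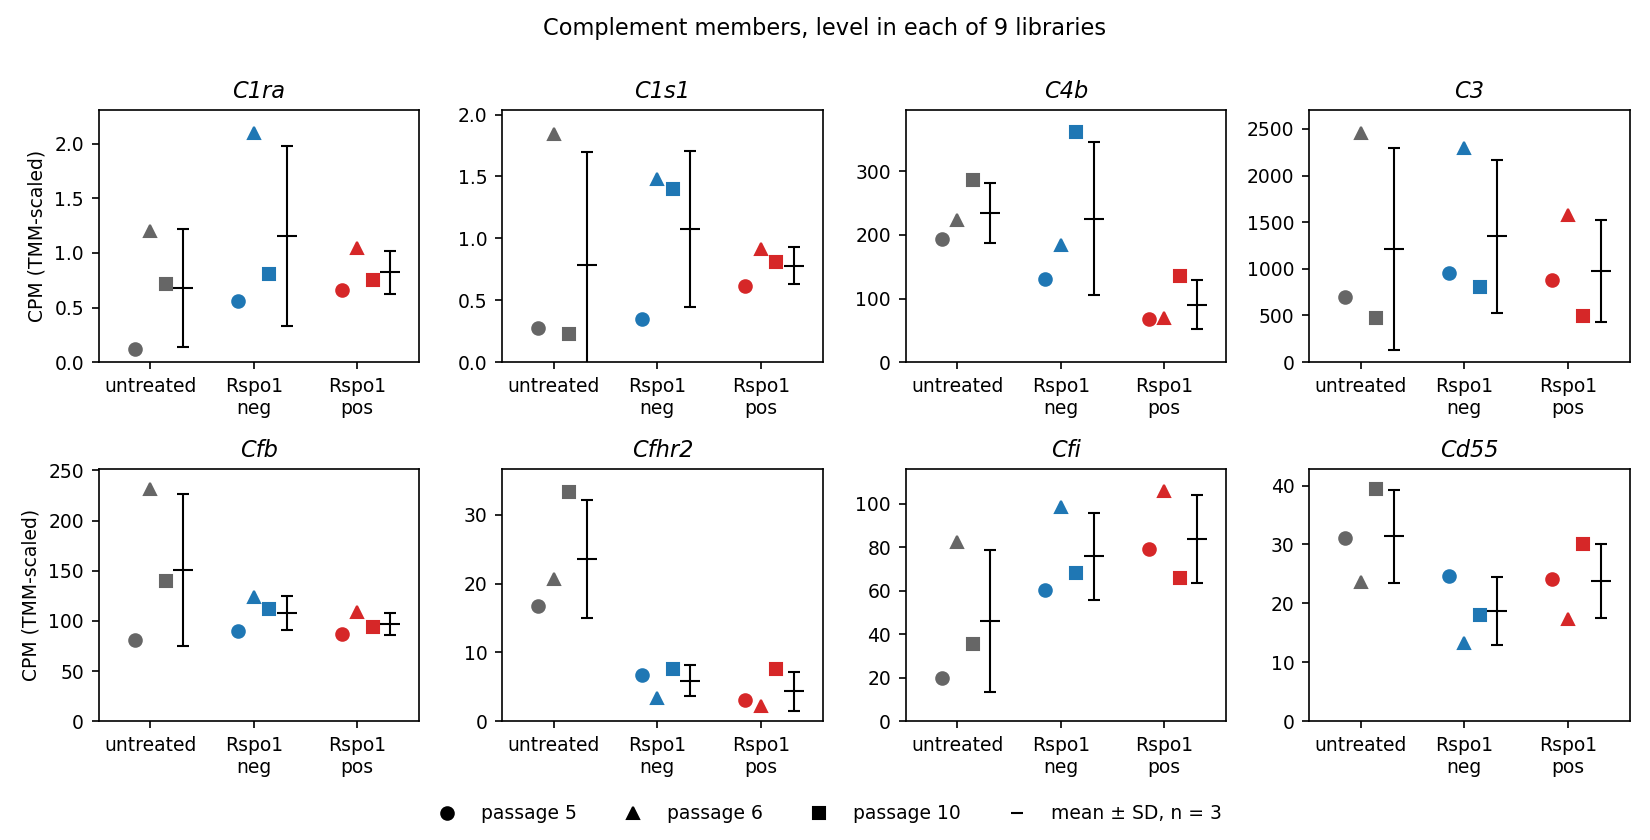
Level of each of the 8 complement genes in the 9 libraries, in CPM on a linear axis from 0, by group. Circles, triangles and squares are passages 5, 6 and 10, and black bars are the mean ± SD of 3 libraries (the lower end of the bar of C1s1 in untreated cells lies below 0 and is not drawn). The 3 untreated Cfhr2 points, 16.8 to 33.2 CPM, lie above all 6 Rspo1 points, and the C3 triangles lie above all other C3 points.

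Cfhr2 shares part of its sequence with its neighbours. Of its 75-base stretches, the read length used, 15.98% were also in the pseudogene Gm16332 and 3.5% in Gm4788, so a part of its reads could not be assigned to 1 gene. Gm4788, a gene next to Cfhr2 that was looked up after the values were seen, was at 3.72, 5.85 and 7.63 CPM in untreated cells at passages 5, 6 and 10. It was at 0.85 to 1.28 CPM in the Rspo1-negative and 0.57 to 1.48 CPM in the Rspo1-positive libraries. Its fold change was -2.51 (SE 0.40) and -2.57 (SE 0.40) on the log2 scale against untreated cells. Gm16332 had a difference of -2.28 (SE 0.51, edgeR adjusted p = 0.0113) in Rspo1-negative and -0.29 (SE 0.44, 0.834) in Rspo1-positive cells, and it rose by 1.99 (SE 0.51, 0.0182) from the negative to the positive Rspo1 group. Cfhr3 had at most 1 count in any library, and no gene was analysed here under the name Cfhr4.

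Across the 9 libraries, the 5 genes whose log2 CPM followed Cfhr2 most closely, of 11661 compared, were Ypel5 (Pearson r = 0.987), Sptssb (0.982), Ndfip2 (0.957), Anxa13 (0.954) and Ugt2b34 (0.952). Sptssb, a subunit of the enzyme that starts sphingolipid synthesis, had means of 117 CPM in untreated, 37.5 CPM in Rspo1-negative and 27.5 CPM in Rspo1-positive cells. Anxa13, an epithelial annexin, had means of 407 CPM in untreated and at most 225 CPM in both Rspo1 groups. These correlations rest on 9 libraries that share an animal and passages and are descriptions. All 5 genes were highest on average in untreated cells and at passage 10, as was Cfhr2. They were picked for following Cfhr2 in these libraries, so the shared order is no separate result.

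The other 7 genes had smaller fitted differences between untreated and Rspo1-treated cells than Cfhr2. Since the set was chosen on the fall of Cfhr2, this order is not a result. Fitted over all tested genes, 5.21% were called (edgeR adjusted p under 0.05) for Rspo1-positive against untreated and 21.9% for Rspo1-negative against untreated. Of the 8 genes Cfhr2 was the 1 called in both, by the choice of the set, and nothing is read from these counts. DESeq2 also called C4b for Rspo1-positive cells. With passage as a block C4b and Cfi were called for Rspo1-positive cells, where 13.2% of tested genes were, and Cfi and Cd55 for Rspo1-negative cells, where 35.5% were. The median log2 difference of the 7 genes was -0.30 in Rspo1-positive and 0.16 in Rspo1-negative cells, beside -0.01 and -0.02 over all tested genes.

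C4b (chromosome 17, 34728380 to 34743882, minus strand) encodes mouse C4, the substrate of C1s from which the classical pathway builds its C3-cleaving enzyme. Its level was 193, 224 and 287 CPM in untreated cells at passages 5, 6 and 10. It was 131, 185 and 362 CPM in Rspo1-negative and 67.2, 68.8 and 135 CPM in Rspo1-positive cells. The Rspo1-positive cells were the lowest of the 3 groups at every passage. Their range overlapped that of the Rspo1-negative cells by 1 library, since passage 10 of the first, at 135 CPM, was above passage 5 of the second, at 131 CPM.

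Within Rspo1-treated organoids, C4b was lower in the tdTom-positive cells, with a log2 difference of -1.32 (SE 0.38, edgeR adjusted p = 0.0282). It was the 1 of the 8 genes to pass this test, beside 24.3% of all tested genes (with passage as a block also 1 of 8, beside 38.9%). Within passages 5, 6 and 10 the difference was -0.96, -1.43 and -1.42, lower in 3 of 3. With passage as a block the adjusted p was 0.000429 (edgeR), and the authors' deposited table gives -1.29 with an adjusted p of 6.41e-20. The call was lost without the Rspo1-positive library of passage 5 (adjusted p = 0.0983), without that of passage 6 (0.102) and without the Rspo1-negative library of passage 10 (0.0867, with a difference of -0.86). It was also lost without the passage 6 libraries of every group (0.12). Against untreated cells the Rspo1-positive difference was -1.38 (SE 0.38) and the Rspo1-negative difference -0.06 (SE 0.37). C4b shares 22.67% of its 75-base stretches with its copy C4a, which had 9 to 55 counts per library against 2040 to 9965 for C4b.

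C3 (chromosome 17, 57203970 to 57228136, minus strand) encodes the protein on which all complement pathways converge. It was the most abundant of the 8 genes per length of transcript, at 91.3 to 469 FPKM, and shares no 75-base stretch with another gene. In CPM it was at 695, 2454 and 477 in untreated cells of passages 5, 6 and 10. In Rspo1-negative cells it was at 950, 2295 and 801 CPM, and in Rspo1-positive cells at 879, 1572 and 492 CPM. Passage set these levels further apart than group did: each passage 6 library lay above all 6 libraries of the other passages. Between the Rspo1 groups the log2 difference was -0.46 (SE 0.63, edgeR adjusted p = 0.628), with the Rspo1-positive library lower at 3 of 3 passages. With passage as a block the adjusted p was 0.0986, while the authors' deposited table gives -0.47 with an adjusted p of 0.00148. Against untreated cells C3 differed by 0.16 (SE 0.63) in Rspo1-negative and -0.30 (SE 0.63) in Rspo1-positive cells.

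Cfb (chromosome 17, 34856374 to 34862518, minus strand) encodes factor B, which supplies the protease of the alternative pathway enzyme. Its level was 81.2, 231 and 140 CPM in untreated cells at passages 5, 6 and 10. It was 89.8, 123 and 111 CPM in Rspo1-negative and 87.4, 109 and 93.5 CPM in Rspo1-positive cells. At passage 5 the groups lay close together, and at passages 6 and 10 the untreated library was the highest. The Rspo1-positive minus Rspo1-negative difference was -0.17 (SE 0.30, edgeR adjusted p = 0.722), and it was 0.07 with the GC and length offset. The annotated readthrough gene Gm20547 covers 79.5% of the exon bases of Cfb and had nearly the same counts, with a ratio of Cfb to Gm20547 of 0.943 to 0.991 over the libraries. The 2 rows therefore cannot be read as separate genes.

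C1ra and C1s1, the mouse genes of the proteases C1r and C1s, were close to the detection limit. They are neighbours on chromosome 6, C1ra at 124512405 to 124523443 on the plus strand and C1s1 at 124530345 to 124542359 on the minus strand. C1ra had 4 to 51 counts per library (0.12 to 2.10 CPM) and C1s1 8 to 55 (0.23 to 1.84 CPM). Neither differed between the Rspo1 groups beyond the spread of the libraries, with log2 differences of -0.48 (SE 0.67) and -0.44 (SE 0.76), and edgeR adjusted p-values of 0.64 and 0.708. C1ra shares 40.11% of its 75-base stretches with C1rb and C1s1 shares 12.95% with C1s2. Exons of C1s1 overlap the antisense gene Gm16567 over 18.41% of their bases. C1rb had at most 4 counts and C1s2 at most 6.

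Cfi (chromosome 3, 129835884 to 129875332, plus strand) encodes factor I, the protease that inactivates deposited C3 and C4 fragments. It was at 19.8, 82.5 and 35.3 CPM in untreated cells of passages 5, 6 and 10. It was at 60.4, 98.5 and 68.1 CPM in Rspo1-negative and 79.3, 106 and 65.8 CPM in Rspo1-positive cells. At each passage both Rspo1 libraries were above the untreated one, although the groups overlapped across passages. The log2 difference from untreated was 0.72 (SE 0.42) in Rspo1-negative and 0.86 (SE 0.42) in Rspo1-positive cells, and 1.25 and 1.40 without passage 6. The 2 Rspo1 groups differed by 0.14 (SE 0.42, edgeR adjusted p = 0.834).

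Cd55 (chromosome 1, 130439027 to 130462744, minus strand) encodes decay-accelerating factor, a membrane-anchored protein that takes the C3-cleaving enzymes apart. It was at 31.1, 23.7 and 39.4 CPM in untreated cells of passages 5, 6 and 10. It was at 24.7, 13.2 and 18.0 CPM in Rspo1-negative and 24.1, 17.4 and 30.0 CPM in Rspo1-positive cells. The untreated library was the highest at each passage, and the groups overlapped. The log2 difference from untreated was -0.75 (SE 0.27) in Rspo1-negative and -0.40 (SE 0.27) in Rspo1-positive cells. Between the Rspo1 groups it was 0.35 (SE 0.27, edgeR adjusted p = 0.381), and -0.01 with the GC and length offset. Cd55 shares 5.53% of its 75-base stretches with Cd55b, which had at most 4 counts.

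On the deposited FPKM scale, which is per length, the order of the group means in untreated cells was C3 (231 ± 207, SD, n = 3), Cfb (53.9 ± 26.9), C4b (42.9 ± 8.65), Cfi (21.7 ± 15.4), Cfhr2 (14.4 ± 5.24), Cd55 (9.85 ± 2.46), C1s1 (0.261 ± 0.305) and C1ra (0.225 ± 0.178). C4b and Cfi, and Cd55 and C1s1, were the neighbours whose means differed by more than the larger SD of the pair. In Rspo1-negative cells the means were C3 (264 ± 159), C4b (42.1 ± 21.9), Cfb (39.6 ± 5.58), Cfi (36.6 ± 9.33), Cd55 (6.03 ± 1.98), Cfhr2 (3.70 ± 1.40), C1ra (0.388 ± 0.275) and C1s1 (0.365 ± 0.212). In Rspo1-positive cells the order was C3 (189 ± 108), Cfi (39.7 ± 10.1), Cfb (34.6 ± 4.21), C4b (16.5 ± 6.77), Cd55 (7.49 ± 1.88), Cfhr2 (2.63 ± 1.72), C1ra (0.272 ± 0.0685) and C1s1 (0.261 ± 0.0510). Cfi thus stood below Cfb and C4b in untreated cells and above both in Rspo1-positive cells, where its libraries overlapped those of Cfb (30.7 to 50.7 against 31.5 to 39.4 FPKM). Cfhr2 stood above Cd55 in untreated cells and below it in both Rspo1 groups.

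**Figure D2:**
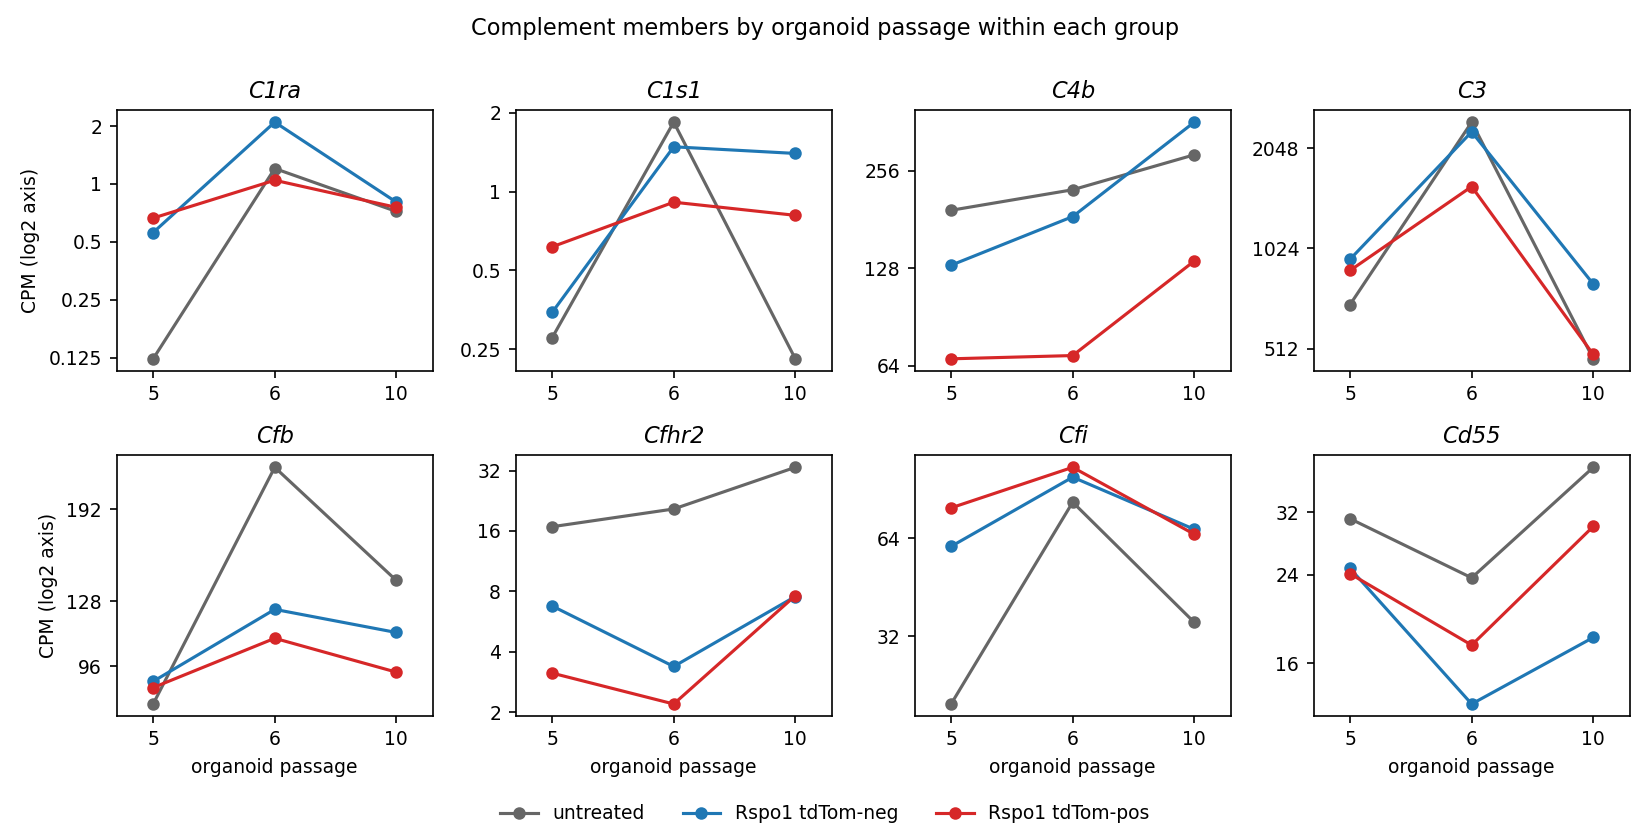
Level of each complement gene in CPM on a log2 axis at organoid passages 5, 6 and 10, drawn at equal spacing, with 1 library per point and 1 line per group. C1ra, C1s1, C3, Cfb and Cfi peak at passage 6 in all 3 groups, Cd55 is lowest there, and C4b and Cfhr2 are highest at passage 10 in all 3 groups.

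The 8 genes also differed by passage. Passage was not part of the stated reason for choosing them, but earlier results of these data were known at the choice. C1ra, C1s1, C3, Cfb and Cfi, 5 of 8, were highest at passage 6 in all 3 groups, a pattern shown by 7.37% of all tested genes. For C1ra and C1s1 this rests on few counts. In Rspo1-positive cells at passages 5, 6 and 10, C1s1 had 25, 27 and 29 counts and C1ra had 27, 31 and 27. Counts this low do not fix the order of the passages. For C1ra, C3 and Cfi every passage 6 library was above the other 6 libraries (1.48% of tested genes). Cd55 was lowest at passage 6 in all 3 groups (6.7% of tested genes). C4b and Cfhr2 were highest at passage 10 in all 3 groups (14% of tested genes). Each passage was sampled once per group, so passage cannot be told apart from the culture and sorting run, and the share of the rRNA gene CT010467.1 was also highest at passage 6 in each group.

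Against passage 5, C3 was higher at passage 6 by 1.32 on the log2 scale (SE 0.20, edgeR adjusted p = 0.00793, group in the model), higher in 3 of 3 groups. It was the 1 gene of the 8 called in this comparison, beside 2.49% of tested genes. The call was lost without the untreated library of passage 5 (adjusted p = 0.0728) and without the Rspo1-negative library of passage 5 (0.0767). The estimates of the other 4 genes with a peak at passage 6 were 1.81 (SE 0.56, adjusted p = 0.129) for C1s1, 1.69 (SE 0.44, 0.0756) for C1ra, 1.03 (SE 0.25, 0.0553) for Cfi and 0.76 (SE 0.19, 0.071) for Cfb. Cd55 had an estimate of -0.60 (SE 0.16, 0.0819). These 5 did not pass the edgeR test as fitted, while DESeq2 called 6 of the 8 genes at passage 6: C3 and these 5. Over all 17011 tested genes DESeq2 called 836 in this comparison. The median over the 8 genes was 0.89, beside 0.00 over all tested genes.

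At passage 10, C4b was higher than at passage 5 by 1.02 (SE 0.17, edgeR adjusted p = 0.00485), higher in 3 of 3 groups and called whichever 1 of the 6 libraries was left out. It was the 1 gene of 8 called, beside 9.07% of tested genes. Cfhr2 had an estimate of 0.80 (SE 0.25, adjusted p = 0.0703), and 1.03 with the GC and length offset (edgeR adjusted p = 0.00483). C3 had an estimate of -0.55 (SE 0.20, adjusted p = 0.109), lower in 3 of 3 groups. The estimates of the other 5 genes were 0.07 to 0.84 with adjusted p-values of 0.24 to 0.82.

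**Figure D3:**
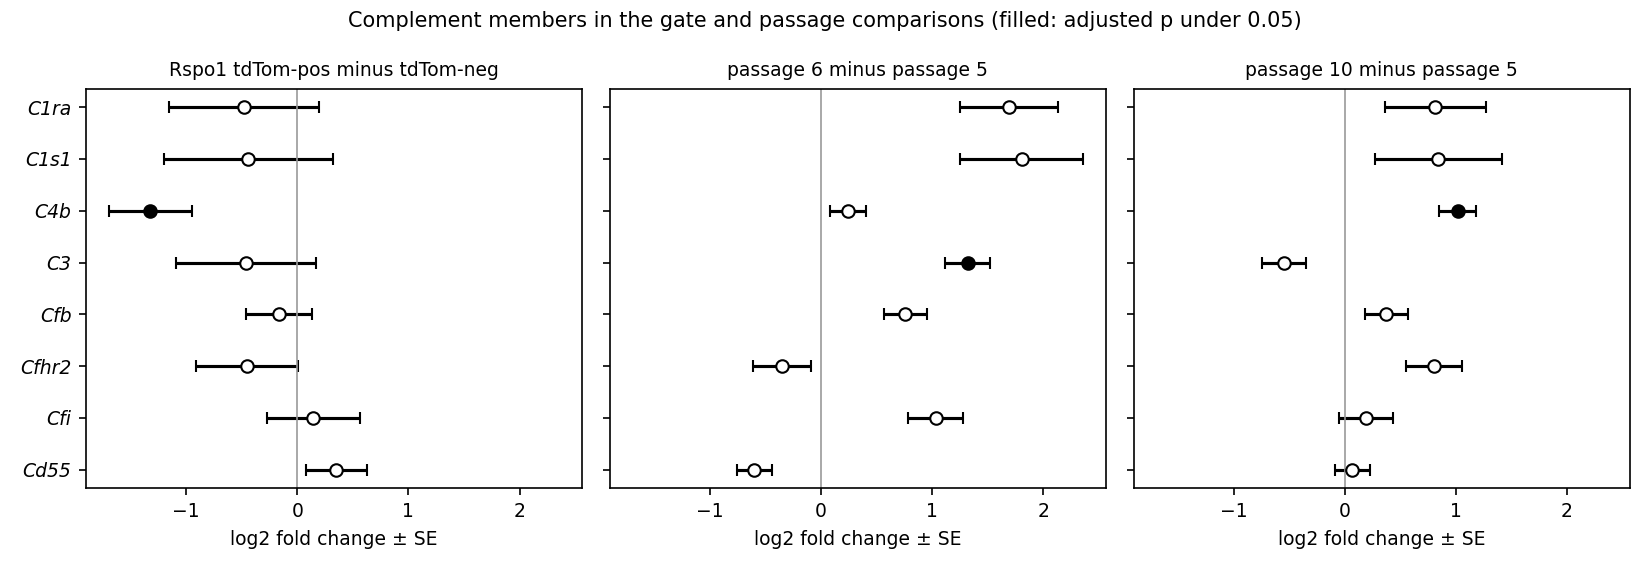
Log2 fold changes ± SE of the 8 genes for the sorting gate within Rspo1-treated organoids and for passages 6 and 10 against passage 5, from edgeR fits to all 9 libraries. Filled points passed an adjusted p of 0.05: C4b for the gate (-1.32), C3 at passage 6 (1.32) and C4b at passage 10 (1.02).

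The 5 genes whose log2 CPM followed C3 most closely were Abr (Pearson r = 0.959), Cnnm3 (0.958), Tnip1 (0.958), Ttc12 (0.946) and Natd1 (0.943). Tnip1, a partner of the NF-kB inhibitor A20, had means of 65.2, 82.5 and 56.4 CPM at passages 5, 6 and 10. All 5 had their highest mean at passage 6 and their lowest at passage 10, an order that follows from picking them by their correlation with C3. With the passage means taken out, r lay between 0.52 and 0.82.

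Acute phase proteins, liver secretory proteins that rise in inflammation, were examined as a list of 16 genes, of which 11 were tested. At passage 6, 4 of 11 were higher than at passage 5 and none lower, with edgeR, beside 2.49% of tested genes called: Saa3 by 3.68, Hp by 1.88, Orm1 by 1.30 and Lcn2 by 0.92 on the log2 scale, with adjusted p-values of 0.00133 to 0.0362. The calls of Orm1 and Lcn2 were each lost in 4 of 6 fits without 1 library (adjusted p up to 0.165 and 0.274). Saa3, serum amyloid A3, rose from 0.523, 0.772 and 0.862 CPM at passage 5 to 11.3, 6.38 and 10.3 CPM at passage 6 in untreated, Rspo1-negative and Rspo1-positive cells. Its groups of libraries did not overlap between these passages. At passage 10, 5 of 11 were higher, beside 9.07% of tested genes called, among them Orm1 by 2.64 (SE 0.25, adjusted p = 0.000316), Fga by 3.17 (SE 0.52, 0.00483) and Fgb by 3.95 (SE 0.87, 0.0195). The other 2 were Hp (1.10) and Saa3 (1.34). Without 1 library the call was lost in 4 of 6 fits for Fgb, 6 of 6 for Hp and 5 of 6 for Saa3, and in none for Orm1 and Fga. Of the 4 tested hepatocyte markers, 0 were higher and 2 lower at passage 10 (Apoa1 and Ttr), with a median of -0.68. The median of the list was 0.83 at passage 6 and 0.84 at passage 10, beside 0.00 and 0.01 over all tested genes. Apcs, serum amyloid P, was the 1 acute phase gene called between the groups, lower in Rspo1-positive cells than in untreated (-1.38, SE 0.33, adjusted p = 0.0386) and in Rspo1-negative cells (-1.02, SE 0.33, 0.046). Without 1 library the first call was lost in 5 of 6 fits and the second in 6 of 6, and without passage 6 the adjusted p-values were 0.396 and 0.0946. This is 1 of 11 genes in each comparison, beside 5.21% and 24.3% of tested genes.

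All 23 listed genes of cytokine signalling known to act on complement genes were tested. At passage 6, 2 were higher than at passage 5: Osmr, the oncostatin M receptor, by 0.62 (SE 0.14, edgeR adjusted p = 0.0497) and Cebpb, a C/EBP factor, by 0.72 (SE 0.17, 0.0477), beside 2.49% of tested genes. Without 1 library these calls were lost in 5 of 6 and 4 of 6 fits, and with the GC and length offset Cebpb had 0.39 (0.0843). At passage 10, 2 rose, Stat3 by 0.58 and Cebpb by 0.64, and 2 fell, Nfkbia (-0.53) and Irf1 (-0.42), with edgeR adjusted p-values of 0.0144 to 0.048, beside 9.07% of tested genes. Without 1 library the call was lost in 6 of 6 fits for Irf1 and in 5 of 6 each for Stat3, Cebpb and Nfkbia, and with the GC and length offset Cebpb had 0.27 (0.131). The medians of the list at passages 6 and 10 were 0.21 and 0.00. Between the groups Jak2, a kinase of cytokine receptors, had a log2 difference of -1.08 (SE 0.16, edgeR adjusted p = 0.00211) between Rspo1-negative and untreated cells and of 0.91 (SE 0.16, 0.00467) between Rspo1-positive and Rspo1-negative cells. With the GC and length offset the second was 0.36 and not called (0.108). Nfkbiz, an NF-kB cofactor, differed in the same directions, by -1.20 and 0.87. Cebpd differed in the opposite directions, by 1.36 and -0.70, the second not called with the offset (0.0822) or in 5 of 6 fits without 1 library. These pairs of comparisons share the Rspo1-negative libraries. In all, 5 of the 23 were called in each of these comparisons, beside 21.9% and 24.3% of tested genes, so the list was called at about the rate of all genes. The remaining calls were Osmr (-0.81) and Ifngr1 (-0.59) lower against untreated, and Il1r1 (0.59) and Tnfrsf1a (-0.47) in the comparison of the Rspo1 groups. With the offset Osmr had -0.39 (0.32) and Tnfrsf1a -0.12 (0.67). Without 1 library the call was lost in 3 of 6 fits for Osmr, 1 of 6 for Ifngr1, 5 of 6 for Il1r1 and 6 of 6 for Tnfrsf1a. For Rspo1-positive against untreated cells, Ifngr1 was the 1 gene called (-0.52, SE 0.13, adjusted p = 0.0427), beside 5.21% of tested genes, and it was lost in 5 of 6 fits without 1 library.

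Of 49 further complement genes listed, 36 had a row in the files and 19 were tested. Among these 19, edgeR called 2 for Rspo1-negative against untreated cells (Masp1, C4bp), 2 for Rspo1-positive against untreated (Masp1, Fcna) and 3 between the Rspo1 groups (Masp1, Fcna, C4bp). These counts stand beside 21.9%, 5.21% and 24.3% of all tested genes. With passage as a block the last count was 6, beside 38.9%, and C2, Masp2 and Cpn1 were the genes added. C2, cleaved by C1s together with C4, was at 9.01 to 10.9 CPM in Rspo1-positive cells and at 11.7 to 15.1 CPM in the other 6 libraries. Its blocked difference was -0.48 (edgeR adjusted p = 0.0186) from Rspo1-negative and -0.52 (0.0287) from untreated cells. Masp2, a lectin pathway protease, had a blocked difference of 1.38 (0.0229) between the tdTom-positive and tdTom-negative Rspo1 groups, with the positive library higher at 3 of 3 passages. At passages 5, 6 and 10 it was at 14.0, 17.2 and 32.5 CPM in Rspo1-positive and 5.86, 9.59 and 6.48 CPM in Rspo1-negative cells. Untreated cells had 16.5, 6.12 and 36.3 CPM and overlapped both Rspo1 groups. Cpn1 differed by -0.51 (0.0467) between the Rspo1 groups and by 0.93 (0.00356) between Rspo1-negative and untreated cells with the block. With the block and the GC and length offset together, C2 (-0.25, edgeR adjusted p = 0.171) and Cpn1 (-0.28, 0.256) were not called between the Rspo1 groups. Masp2 was (1.35, 0.0451). In the group comparisons as first fitted the remaining tested genes, among them Clu (clusterin, an inhibitor of the membrane attack complex), did not pass. Between the Rspo1 groups Cr1l, a membrane regulator, was called with the GC and length offset (-0.97, edgeR adjusted p = 0.0109) but not with the block (-0.26, 0.141). Without passage 6, Masp2 (1.89, 0.0443) and Mbl1 (6.43, 0.0327) were called, Mbl1 at 0 to 24 counts per library. Clu had means of 7350 to 10084 FPKM by group, above those of all 8 members. Of the terminal pathway C8g was tested, at 51 to 152 counts per library (1.71 to 4.37 CPM), while C7 had 0 counts in every library, C8a at most 1, Hc (complement C5) at most 2 and C6 at most 3. Cfd, the protease that activates factor B, had at most 2 counts. The receptor genes C3ar1 and C5ar2 had at most 1 and 3.

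Masp1, a protease of the lectin pathway, was at 19.1, 16.6 and 15.9 CPM in untreated cells of passages 5, 6 and 10. It was at 11.3, 7.04 and 9.32 CPM in Rspo1-negative and 6.18, 4.89 and 6.13 CPM in Rspo1-positive cells. The 3 groups did not overlap, with untreated cells highest and Rspo1-positive cells lowest. The log2 difference from untreated was -0.90 (SE 0.20, edgeR adjusted p = 0.0125) in Rspo1-negative and -1.58 (SE 0.21, 0.00187) in Rspo1-positive cells, and between the Rspo1 groups it was -0.68 (SE 0.21, 0.0356). The Rspo1-positive difference from untreated was called in all 15 alternatives. The Rspo1-negative difference was not called after the GC and length correction (-0.61, 0.114), without passage 6 (0.0633) or without the Rspo1-negative library of passage 10 (0.052). Between the Rspo1 groups, leaving out a single library ended the call in 5 of 6 cases (adjusted p up to 0.135), as did leaving out passage 6 (0.0575). These fits had no term for passage. With passage as a block the difference between the Rspo1 groups was -0.67 (edgeR adjusted p = 0.0074).

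C4bp, a chain of the C4b-binding protein, was at 19.4 to 25.6 CPM in untreated, 37.2 to 44.1 CPM in Rspo1-negative and 23.6 to 31.9 CPM in Rspo1-positive cells. All 3 Rspo1-negative libraries lay above the other 6. The Rspo1-negative level was above the untreated by 0.87 (SE 0.16, edgeR adjusted p = 0.0049), and the Rspo1-positive level was below the Rspo1-negative by -0.59 (SE 0.16, 0.0233). With the GC and length offset these were 1.48 and -1.25, and both were called. Without 1 library the second call was lost in 4 of 6 fits, with an adjusted p of up to 0.092. With passage as a block the second difference was -0.60 (edgeR adjusted p = 0.00242).

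Fcna, encoding the pattern-recognition protein ficolin A, was at 1.44 to 2.86 CPM in untreated, 1.52 to 2.24 CPM in Rspo1-negative and 0.304 to 0.960 CPM in Rspo1-positive cells. It was lower in Rspo1-positive cells by -1.64 (SE 0.43, edgeR adjusted p = 0.0207) against Rspo1-negative and by -1.69 (SE 0.43, 0.049) against untreated cells. Both calls were lost without passage 6, at adjusted p-values of 0.0708 and 0.281, and in 4 of 6 fits each without 1 library. Between the Rspo1 groups Fcna was also not called with the GC and length offset (-1.21, edgeR adjusted p = 0.0982). With passage as a block that difference was -1.70 (edgeR adjusted p = 0.00251). At passage 10 against passage 5, 3 of the 19 genes were higher and none lower, beside 9.07% of tested genes called: C1rl, a C1r-like protease, by 1.35 (SE 0.27, edgeR adjusted p = 0.012), Cpn1, the carboxypeptidase that inactivates anaphylatoxins, by 1.21 (SE 0.19, 0.00364) and Itgam, a chain of complement receptor 3, by 1.09 (SE 0.16, 0.00288). The call of C1rl was lost in 4 of 6 fits without 1 library. At passage 6, edgeR called 0 of 19, beside 2.49% of tested genes, and DESeq2 called 0. An unadjusted edgeR p under 0.05 was reached by 5 of the 19. The share of all tested genes at that threshold was not counted, so nothing is read from the 5.

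**Figure D4:**
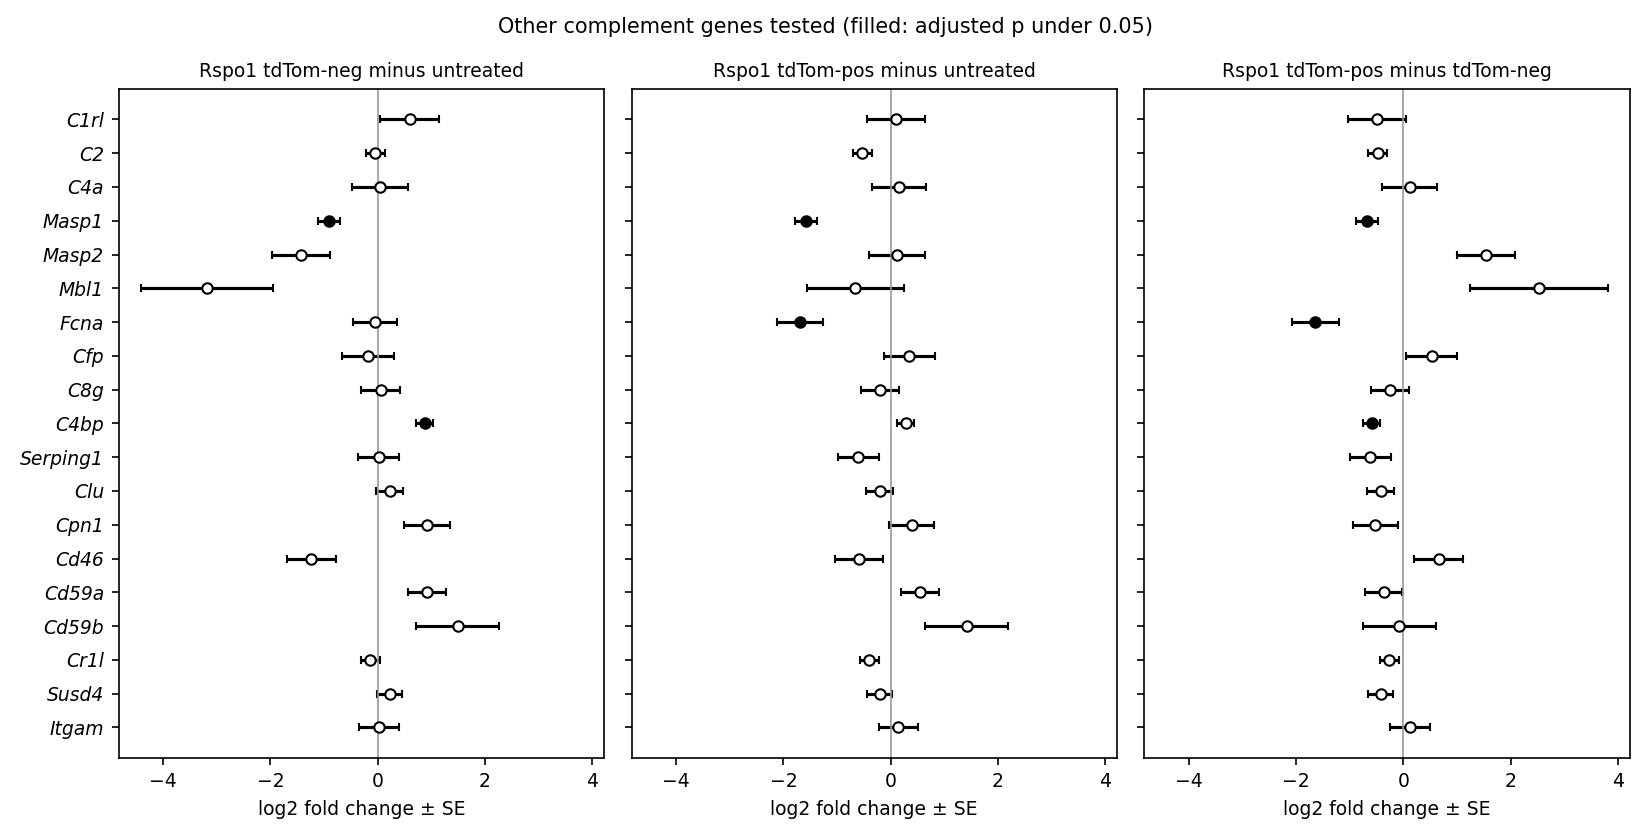
Log2 fold changes ± SE of the 19 other complement genes that were tested, in the 3 group comparisons, from edgeR fits to all 9 libraries. Filled points passed an adjusted p of 0.05: Masp1 in all 3 panels, and C4bp and Fcna in 2 each.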

How the data were processed

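RNA sequencing libraries (single-end, 75 bp, from 100 ng of total RNA, per the labels' protocols) were deposited as 1 file per library giving raw counts and FPKM for each gene, as the file headers state. Per the file headers, FPKM is the deposited per-length value and the raw count is not normalized. The submitters' processing notes name Trimmomatic 0.35, FastQC 0.11.2, STAR 2.5.1b, featureCounts, DESeq2 and the GRCm38 build. The order of these steps, the strand setting, the treatment of reads shared by genes and the annotation are not given in the sources used here. The authors also deposited tables with a log2 fold change, its standard error, a p-value and an adjusted p-value per gene. Mean expression signals and test statistics, scores in those deposited tables, were not used.

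Raw counts were fitted in R 4.3.3 with edgeR 4.0.16 after filterByExpr (minimum count 10, minimum total count 15) and TMM scaling. All 9 libraries entered 1 quasi-likelihood fit of group. Passages were compared in a fit of group and passage. P-values were adjusted by Benjamini-Hochberg over 17011 genes, with a threshold of 0.05. The SE is the log2 fold change divided by the square root of F. FPKM entered no test. Total counts of 23423979 to 37351448 limit the precision of genes with few counts, such as C1ra and C1s1. DESeq2 1.42.0, other scalings, no filter, a GC and length offset, passage as a block and left-out libraries were alternatives. The scripts were tested on simulated data. Tables and figures were made with Python 3.11.15. Gene models were GENCODE vM21 and promoters RefSeq.

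Libraries of the same passage deviated together: deviations of log2 CPM from the group means correlated at 0.123 to 0.573 in 9 pairs of the same passage and at -0.476 to 0.0826 in 18 pairs of different passages. The shared passage comes from the labels, so passage pairs the libraries.

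The 8 genes and the gene lists were chosen with earlier results of these data known. Named genes are the 8 members, other complement genes past the threshold in any of the 5 comparisons as first fitted, paralogs of members (2 genes under this rule are not reported here), the 3 acute phase and 3 cytokine signalling genes with the smallest p in each comparison, and the 5 genes most like Cfhr2 and C3. Further genes of these lists are named in counts of 5 or fewer, and Gm4788, Gm16332, Gm20547, Gm16567, CT010467.1, Clu, C2, Masp2, Cr1l, Mbl1, C8g and the named marker genes were added after their values were seen.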

Additional observations from a re-analysis of the deposited data

How the results depend on the processing

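For each of the 5 comparisons 1 of the 8 complement genes was called with edgeR as first fitted: Cfhr2 against untreated in both Rspo1 groups, C4b between the Rspo1 groups and at passage 10, and C3 at passage 6. Between the Rspo1 groups the replicate block (passage) left 1 called, the block with the GC and length offset gave 2, and leaving out passage 6, an alternative chosen after seeing the data, gave 0. Leaving out 1 library gave 0 to 1. For Rspo1-positive against untreated cells DESeq2, the offset and a fit of only the 6 libraries compared gave 2 each, no filter and the block gave 3 each, the block with the offset gave 4, leaving out passage 6 gave 0 and leaving out 1 library gave 0 to 2. For Rspo1-negative against untreated cells the offset gave 0, leaving out passage 6 gave 2, no filter and the block gave 3 each, the block with the offset gave 4 and leaving out 1 library gave 1 to 4. At passage 10 the offset gave 2, DESeq2 and no filter gave 3 each and leaving out 1 library gave 1 to 2. At passage 6 the offset gave 2, DESeq2 and no filter gave 6 each and leaving out 1 library gave 0 to 2. The share of all tested genes called also changed with the setting. With passage as a block it was 38.9% between the Rspo1 groups, 13.2% for Rspo1-positive and 35.5% for Rspo1-negative against untreated cells. The counts by setting are a description, here and for the other complement genes below. The cause of these differences was not tested.

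Of the 19 other complement genes, 3 were called between the Rspo1 groups, 6 with the block, 5 with DESeq2 or with the block and offset together, and 0 to 3 without 1 library. For Rspo1-positive against untreated cells 2 were called, 3 with DESeq2, the block or the block and offset together, 1 with upper-quartile scaling, with the 6 libraries compared or without passage 6, and 1 to 2 without 1 library. For Rspo1-negative against untreated cells 2 were called, 6 with no filter, 5 with DESeq2, with the block and offset together or without passage 6, and 1 to 6 without 1 library. At passage 10 the count was 3, with no filter 5, and 2 to 3 without 1 library. At passage 6 it was 0, with no filter 1, and 0 to 2 without 1 library. Over all 17011 genes, passage 6 against passage 5 called 423, and 836 with DESeq2.

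The signs that turned belonged to differences that had not passed, except for Il1r1. Between the Rspo1 groups, Il1r1 had -0.073 with the offset and -0.0829 with the block and offset, Cd55 -0.0065 and -0.010, and Cfb 0.070 and 0.084. C1ra had 0.048 without passage 6. Against untreated cells C1s1 in Rspo1-positive cells had -0.00298 with DESeq2 and -0.042 with the offset, and C3 had 0.23 without passage 6. C4b in Rspo1-negative cells had 0.015 with upper-quartile scaling, 0.0031 with no filter and 0.049 without passage 6. Without 1 library the ranges that crossed 0 were, between the Rspo1 groups, -0.11 to 0.53 for Axin2, -0.83 to 0.26 for C1ra, -0.98 to 0.15 for C3 and -0.062 to 0.37 for Cfi. For Rspo1-positive against untreated cells they were -0.23 to 0.94 for C1ra, -0.44 to 1.60 for C1s1 and -0.82 to 0.74 for C3. For Rspo1-negative against untreated cells they were -3.3e-06 to 2.05 for C1s1, -0.43 to 1.21 for C3 and -0.53 to 0.22 for C4b. At passage 10 they were -0.053 to 0.28 for Cd55 and -0.15 to 0.49 for Cfi. At 4 to 55 counts per library C1ra and C1s1 are limited by depth. A fit that left out a library assumed that the remaining libraries of its group vary like those of the other groups.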
